A study of Mus musculus with 2 samples.

Results

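The 10 genes followed through ribosome-bound RNA of the ventral striatum belong to the RGS family, the regulators of G protein signalling: Rgs2, Rgs4, Rgs7, Rgs8, Rgs9, Rgs10, Rgs12, Rgs14, Rgs16 and Rgs17. They are 10 of the 32531 gene symbols counted, were taken by name, and all 10 were found and passed a filter of 1 CPM in both libraries (CPM, reads per 1000000 reads in named genes). The RNA came from adult control mice of the line Stard5-TRAP JX5852, untreated, which carry the ribosomal protein Rpl10a joined to EGFP and are named for the gene Stard5 that directs the transgene. Translating ribosome affinity purification (TRAP) pulled the tagged polysomes out with monoclonal antibodies against EGFP before RNA was extracted. All values come from 1 mouse line, and no input library enters them. There were 2 libraries, replicates 1 and 2 of the only group, and no label other than the replicate number distinguishes them.

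RGS proteins end signals of G protein-coupled receptors. They bind the active, GTP-loaded alpha subunit of a G protein and speed up its GTP hydrolysis, mostly on the Gi/o and Gq classes, whereas the Gs/olf class is not known as a substrate of this activity. In the striatum they are best known for shortening dopamine D2 receptor, opioid and muscarinic signals, and the family is divided by structure into the R4, R7, R12 and RZ subfamilies.

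Replicate 1 held 25830282 reads in named genes, replicate 2 held 29574781, and 12374 genes reached 1 CPM in both. Markers of spiny projection neurons, the output neurons of the striatum, were detected for 17 of 17 genes, with summed levels of 14912 and 11132 CPM in replicates 1 and 2. Markers of other cells were present too. Their summed levels in replicates 1 and 2 were 1196 and 3504 CPM for 12 astrocyte markers, 991 and 1533 CPM for 12 oligodendrocyte markers, 105 and 211 CPM for 7 markers of oligodendrocyte precursors, and 262 and 183 CPM for 12 microglia markers. Endothelial and mural markers were low, at 43.6 and 57.2 CPM over 12 genes, and cholinergic interneuron markers stood at 149 and 162 CPM over 8 genes, with Gbx2 at 0 reads. Markers of GABAergic interneurons summed to 195 and 283 CPM over 10 genes, with Vip at 0 reads, and those of cortical and thalamic neurons to 43.2 and 79.3 CPM over 7 genes, with Emx1 at 0 reads. Nuclear RNAs such as Malat1 summed to 3914 and 10719 CPM. In such bulk RNA, fewer cells of a type and less RNA per cell cannot be told apart. The labels do not say whether the libraries came from separate animals, and their spread may therefore be technical only.

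The promoters of the 4 R4 members are shown first because this subfamily held the most abundant members per kilobase of exon and the 2 members that differed most between the libraries. Rgs2, Rgs4, Rgs8 and Rgs16 all lie on chromosome 1, and 3 of the 4 were lower in replicate 2 while Rgs4 was not. The sequences are the RefSeq windows of build GRCm38.p6, read 5′ to 3′ on the gene's strand and ending before the first annotated exon base, and 9 of the 10 members had such a window (not Rgs14). Capitals mark each match, on the strand shown or as its reverse complement, to 3 motifs. These were the CCAAT box, the core of the TATA box, with the letters TATAAA, and the core of the cAMP response element, with the letters TGACG.
Rgs2, chr1:144004162-144004399, minus strand: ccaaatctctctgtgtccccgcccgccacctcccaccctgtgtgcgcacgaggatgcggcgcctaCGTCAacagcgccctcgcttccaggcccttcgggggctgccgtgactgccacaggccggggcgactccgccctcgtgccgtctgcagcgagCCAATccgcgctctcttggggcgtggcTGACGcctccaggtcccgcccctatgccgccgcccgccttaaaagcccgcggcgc
Rgs4, chr1:169747643-169747892, minus strand: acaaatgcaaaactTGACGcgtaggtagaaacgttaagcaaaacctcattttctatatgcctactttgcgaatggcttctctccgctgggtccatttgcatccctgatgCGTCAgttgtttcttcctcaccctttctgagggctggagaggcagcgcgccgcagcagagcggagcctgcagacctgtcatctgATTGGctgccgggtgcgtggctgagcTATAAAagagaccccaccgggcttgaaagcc
Rgs8, the first of 3 listed starts, chr1:153652787-153653024, plus strand: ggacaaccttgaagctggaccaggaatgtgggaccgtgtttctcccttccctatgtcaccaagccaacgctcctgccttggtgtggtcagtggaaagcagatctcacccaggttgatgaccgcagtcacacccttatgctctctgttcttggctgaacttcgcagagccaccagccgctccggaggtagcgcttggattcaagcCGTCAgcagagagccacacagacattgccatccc
Rgs16, chr1:153740103-153740348, plus strand: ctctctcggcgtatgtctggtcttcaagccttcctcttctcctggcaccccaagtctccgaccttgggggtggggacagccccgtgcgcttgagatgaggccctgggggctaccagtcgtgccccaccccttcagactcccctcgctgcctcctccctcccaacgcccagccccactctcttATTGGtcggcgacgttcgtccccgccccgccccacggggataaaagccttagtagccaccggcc

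The CCAAT letters were in the windows of Rgs2, Rgs4 and Rgs16 shown here, against 33.9% of all 32851 RefSeq windows of 250 bases. TGACG was found 2 times in Rgs2, 2 times in Rgs4 and 1 time in Rgs8, and 17.8% of all windows held it at least once. The full palindrome TGACGTCA, which contains TGACG, was in 0 of the 12 windows of the members and in 1.55% of all windows. TATAAA was in Rgs4 alone of these 4 windows, against 12.4% of all windows. Over the 12 windows of the members, 6 held CCAAT, 4 held TGACG and 2 held TATAAA. Each of the other Rgs8 windows, not shown, held CCAAT. The Rgs2 window was rich in CpG, with 30 CpG dinucleotides and 72.4% G and C in the 250 bases before the RefSeq start, against medians of 6 and 52.4% over all windows. Rgs8 had 9 CpG, Rgs4 13 and Rgs16 17. These matches describe letters only and were not related to any measured binding.

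In CPM, levels fell into a high and a low set. The 6 members Rgs2, Rgs4, Rgs7, Rgs8, Rgs9 and Rgs17 exceeded 100 CPM in both libraries, and the other 4 stayed under 50 CPM in both. Together the 10 members summed to 1994 and 1664 CPM in replicates 1 and 2. Per kilobase of exon, which allows levels of different genes to be compared, the median of the members was 30.3 CPM, beside 5.29 CPM over all detected genes.

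**Figure D1:**
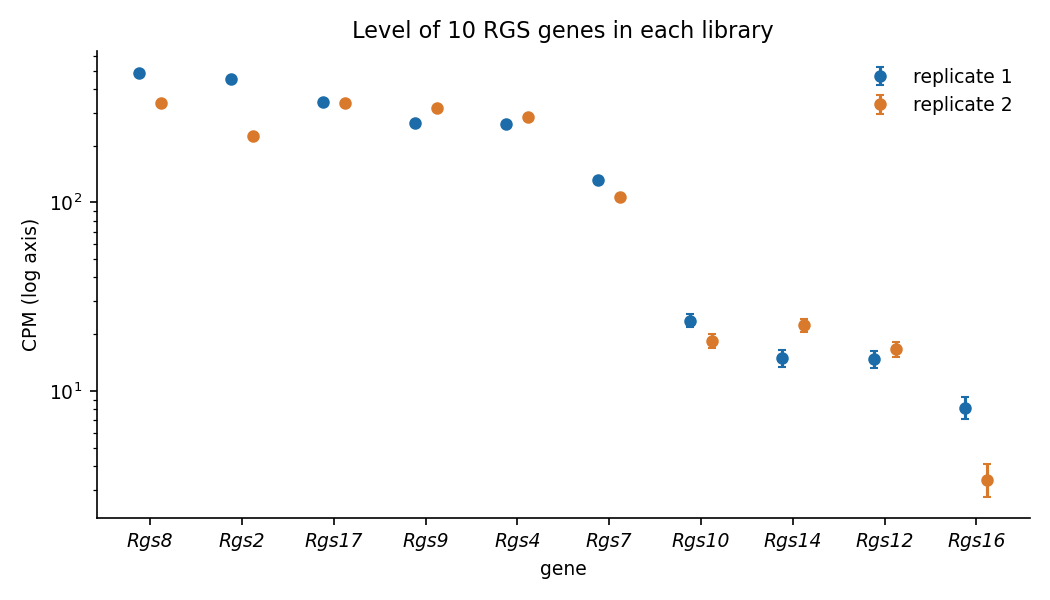
Level of each of the 10 RGS genes (x axis) in CPM on a log axis (y axis), blue for replicate 1 and orange for replicate 2, with bars for the exact Poisson 95% interval of each library, often smaller than the point. There are 6 genes above 100 CPM and 4 below 50 CPM in both libraries, and the largest gap between the libraries in this plot is at Rgs16, 8.13 against 3.38 CPM.

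The R4 subfamily, small proteins that consist of little more than the RGS domain, had the largest summed level and also the most members. Its 4 members made up 64.1% ± 5.51 (SD, n = 2) of the summed level of all 10 per kilobase of exon, with 68.0% in replicate 1 and 60.2% in replicate 2. That share was 55.7% on the CPM scale and 56.7% with the longest transcript as length. R4 thus held the largest share on each scale, as a sum over 4 genes. The single RZ member held 18.6% on the CPM scale.

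Rgs2 preferentially acts on Gq and is known as a gene induced by neuronal activity and by cAMP. It lies on chromosome 1 from 143999338 to 144004161 on the minus strand (ENSMUSG00000026360.9, GRCm38). It stood at 452 CPM in replicate 1 (exact Poisson 95% interval 444 to 460) and 225 CPM in replicate 2 (220 to 231), from 11673 and 6660 reads. Replicate 1 was thus the high library, and the intervals did not overlap. On the scale per kilobase of exon, Rgs2 was at 125 and 62.1 CPM, above 98.0% of detected genes by its mean.

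Rgs4 (ENSMUSG00000038530.11, chromosome 1, 169741477 to 169747642, minus strand) acts on Gi/o and Gq and is regulated by dopamine in the striatum. Its level was 261 CPM (255 to 267) and 284 CPM (278 to 290) in replicates 1 and 2. The libraries were close, with replicate 2 slightly the higher. Divided by exon length, Rgs4 was at 84.2 and 91.7 CPM per kilobase, so it was below Rgs2 in replicate 1 and above it in replicate 2. The mean log2 difference between the pair was 0.00 ± 0.80 (SD, n = 2), which leaves their order undetermined.

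Rgs8, a neuronal member that acts mainly on Gi/o, had the most reads of the members in both libraries. It was at 484 CPM (475 to 492) and 336 CPM (330 to 343) in replicates 1 and 2. Its annotated exons span 9640 bases, the longest of the members, so per kilobase it came below Rgs2 and Rgs4, at 50.2 and 34.9 CPM. Rgs8 (ENSMUSG00000042671.12) runs from 153653025 to 153700323 on the plus strand of chromosome 1, and Rgs16 (ENSMUSG00000026475.7, 153740349 to 153745468) starts 40.0 kb beyond it on the same strand.

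Rgs16 was the lowest member in CPM. This gene, which acts on Gi/o and Gq and is induced in several cell types by stimulation, had 210 reads in replicate 1 and 100 in replicate 2, or 8.13 CPM (7.07 to 9.31) and 3.38 CPM (2.75 to 4.11). By levels per kilobase, Rgs8 exceeded Rgs16 by 14.4-fold in replicate 1 and 24.1-fold in replicate 2, and Rgs2 exceeded it by 35.8-fold and 42.9-fold. Gm28513 on the opposite strand overlaps 10.1% of the exon bases of Rgs16. The counting strand is not given in the sources used here, so the reads of such a pair cannot be told apart.

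R7 proteins carry a G gamma-like domain that binds the G beta subunit Gnb5, and a further domain that binds the membrane anchor Rgs7bp. Rgs9, whose long splice form is characteristic of the striatum and limits D2 and mu opioid receptor signals, stood at 264 CPM (257 to 270) and 315 CPM (309 to 322) in replicates 1 and 2. Rgs7, which is spread more widely in the brain, stood at 132 CPM (128 to 137) and 107 CPM (103 to 111). Rgs9 was thus higher in replicate 2 and Rgs7 in replicate 1. Per kilobase of exon Rgs9 exceeded Rgs7 in both libraries, by 1.88-fold in replicate 1 and 2.78-fold in replicate 2. Counts per gene do not separate the long, striatal form of Rgs9 from the short form of the retina. Rgs9 (ENSMUSG00000020599.13) lies on chromosome 11 from 109225355 to 109298129, and Rgs7 (ENSMUSG00000026527.13) on chromosome 1 from 175059087 to 175492500, both on the minus strand.

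Of the 5 R7 partners 3 were detected, each above Rgs9 and above Rgs7 per kilobase of exon in both libraries. Summed per kilobase of exon, Rgs9 and Rgs7 reached 63.2 CPM in replicate 1 and 67.1 CPM in replicate 2. Gnb5, which stabilises R7 proteins, was at 89.3 and 68.9 CPM on that scale, and Rgs7bp at 77.3 and 62.1 CPM. Gpr158, an orphan receptor that binds Rgs7, was at 57.6 and 57.2 CPM. The order of Rgs9 against Gpr158 and Rgs7bp depended on the length used. With the longest transcript, Rgs9 was at 76.1 and 91.0 CPM per kilobase. That was above Gpr158 (65.6 and 65.1) in both libraries and above Rgs7bp (77.3 and 62.1) in replicate 2. Gnb5, at 132 and 102 with that length, stayed above Rgs9 in both libraries. The partners of the retina were nearly absent: Rgs9bp, the anchor of Rgs9 in photoreceptors, had 0 and 8 reads, and Gpr179, of retinal bipolar cells, had 22 and 7 reads. A count of 0 in replicate 1 allows up to 0.143 CPM by counting error alone.

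The R12 members differ in size and were all under 50 CPM. Rgs10, a small Gi/o regulator also known from microglia, was at 23.6 CPM (21.8 to 25.6) and 18.5 CPM (16.9 to 20.1) in replicates 1 and 2. Rgs14, a scaffold with a GoLoco motif that holds inactive Gi and best known from hippocampal area CA2, was at 14.9 CPM (13.5 to 16.5) and 22.3 CPM (20.6 to 24.1). Rgs12, a related scaffold with the same motif, was at 14.7 CPM (13.3 to 16.3) and 16.6 CPM (15.2 to 18.1). The intervals of Rgs10 and of Rgs14 did not overlap between the libraries, in opposite directions, and those of Rgs12 did overlap. Per kilobase of exon, Rgs10, with 1711 exon bases, was at 13.8 and 10.8 CPM, above 73.0% of detected genes by its mean. On that scale the order was Rgs10 over Rgs14 over Rgs12 in both libraries, with Rgs10 3.93-fold and 2.05-fold above Rgs14. Together the 3 genes made up 5.32% ± 0.54 (SD, n = 2) of the summed level of the members per kilobase of exon. That share was 3.06% on the CPM scale and 7.77% with the longest transcript as length. Rgs10 (ENSMUSG00000030844.11) lies on chromosome 7 (128373621 to 128418758, minus strand), Rgs12 (ENSMUSG00000029101.16) on chromosome 5 (34949445 to 35039644, plus strand) and Rgs14 (ENSMUSG00000052087.14) on chromosome 13 (55369732 to 55384687, plus strand). A gene on the other strand overlaps 5.50% of the exon bases of Rgs12.

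Rgs17, the RZ member, known as a regulator of Gz and of mu opioid receptor signals, stood at 340 CPM (333 to 347) and 335 CPM (329 to 342) in replicates 1 and 2, and these intervals overlapped. Divided by exon length, this was 41.0 and 40.4 CPM per kilobase. The other RZ genes were lower in both libraries, Rgs20 at 15.1 and 11.6 CPM per kilobase and Rgs19 at 6.67 and 4.29. Rgs17 exceeded Rgs20 by 2.71-fold and 3.48-fold, and Rgs19 by 6.15-fold and 9.41-fold. With the longest transcript as length the order held, but the gaps were smaller. Rgs17 was then at 41.5 and 40.9, Rgs20 at 30.1 and 23.1, and Rgs19 at 9.84 and 6.33 CPM per kilobase. Its preferred alpha subunit Gnaz, named after its values were seen, was at 17.3 and 14.9 CPM per kilobase. Rgs17 (ENSMUSG00000019775.17) spans chromosome 10 from 5825663 to 5922400 on the minus strand.

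**Figure D2:**
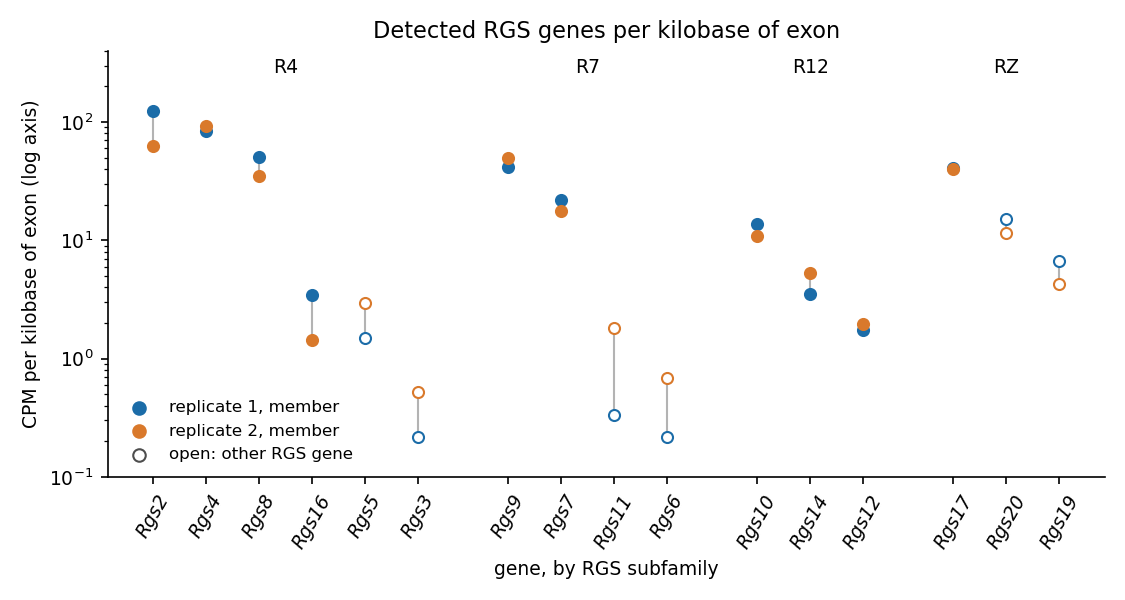
Level of the 16 detected RGS genes in CPM per kilobase of exon on a log axis, grouped by subfamily on the x axis. Filled points are the 10 members and open points the other RGS genes, blue for replicate 1 and orange for replicate 2, and a grey line joins the libraries. In R4, Rgs8 stands 14.4-fold and 24.1-fold above Rgs16, and in R7, Rgs9 stands 125-fold and 27.0-fold above Rgs11, while RZ falls in steps from Rgs17 at 41.0 and 40.4 to Rgs19 at 6.67 and 4.29.

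Ordered by mean CPM per kilobase of exon, the members ran Rgs2, Rgs4, Rgs9, Rgs8, Rgs17, Rgs7, Rgs10, Rgs14, Rgs16 and Rgs12. Of the 9 pairs of neighbours, 4 kept their order in both libraries with a mean log2 difference above its SD, and 5 did not. Those that held were Rgs4 over Rgs9, at 0.96 ± 0.09, Rgs17 over Rgs7, at 1.04 ± 0.20, Rgs7 over Rgs10, at 0.69 ± 0.03, and Rgs10 over Rgs14, at 1.51 ± 0.66 (SD, n = 2). Rgs9, Rgs8 and Rgs17 could not be ordered, since Rgs8 led the 3 in replicate 1 and Rgs9 in replicate 2. At the low end Rgs16 could not be ordered against its neighbours Rgs14 and Rgs12, whereas Rgs14 was above Rgs12 by 1.22 ± 0.29 (SD, n = 2). With the longest transcript as length in place of all exons, Rgs4 over Rgs9 shrank to 0.15 ± 0.09 and Rgs9 over Rgs8 became 0.81 ± 0.55. The other pairs that had held kept their order with that length, but Rgs17 over Rgs7 shrank to 0.35 ± 0.20 and Rgs7 over Rgs10 to 0.45 ± 0.03. These differences were not tested.

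Outside the 10 members, 6 of the 11 other RGS genes were detected, all of them below the 6 abundant members per kilobase in each library. The highest was Rgs20, which stood above Rgs10, Rgs14, Rgs16 and Rgs12. The R4 genes Rgs5, known from pericytes, and Rgs3 were at 1.51 and 2.92, and at 0.219 and 0.520 CPM per kilobase in replicates 1 and 2. The R7 genes Rgs11 and Rgs6 were at 0.331 and 1.82, and at 0.216 and 0.681. In all, 5 genes were not detected: Rgs1, with 9 and 2 reads, Rgs22, with 0 and 5, and Rgs13, Rgs18 and Rgs21 with 0 reads in both libraries, which allows up to 0.143 and 0.125 CPM by counting error. Rgs1, Rgs13, Rgs18 and Rgs21 belong to R4, and on chromosome 1 Rgs13 lies 134 kb and Rgs18 749 kb from Rgs2. Rgs5 likewise lies 45.7 kb from Rgs4, and Rgs4 exceeded it per kilobase by 55.9-fold in replicate 1 and 31.4-fold in replicate 2.

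G protein alpha subunits of all classes were detected, those on which RGS proteins act and those on which they are not known to. Per kilobase of exon, Gnal of the Gs/olf class was the highest, at 240.0 and 204 CPM. The Gi/o genes Gnai1 and Gnao1 followed, at 172 and 178 and at 148 and 132 CPM, and then Gnas of the Gs/olf class, at 87.1 and 80.6. With the longest transcript as length, Gnao1 was at 297 and 265 CPM and Gnas at 247 and 228. Both were then above Gnai1, and Gnal stayed the highest. Gnaq of the Gq class, the class Rgs2 prefers, was at 63.3 and 61.6 CPM and Gna11 at 27.1 and 18.9 CPM. Rgs2 therefore stood above Gnaq in replicate 1 and level with it in replicate 2. All 11 detected alpha subunit genes kept within a 2-fold ratio between the libraries.

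**Figure D3:**
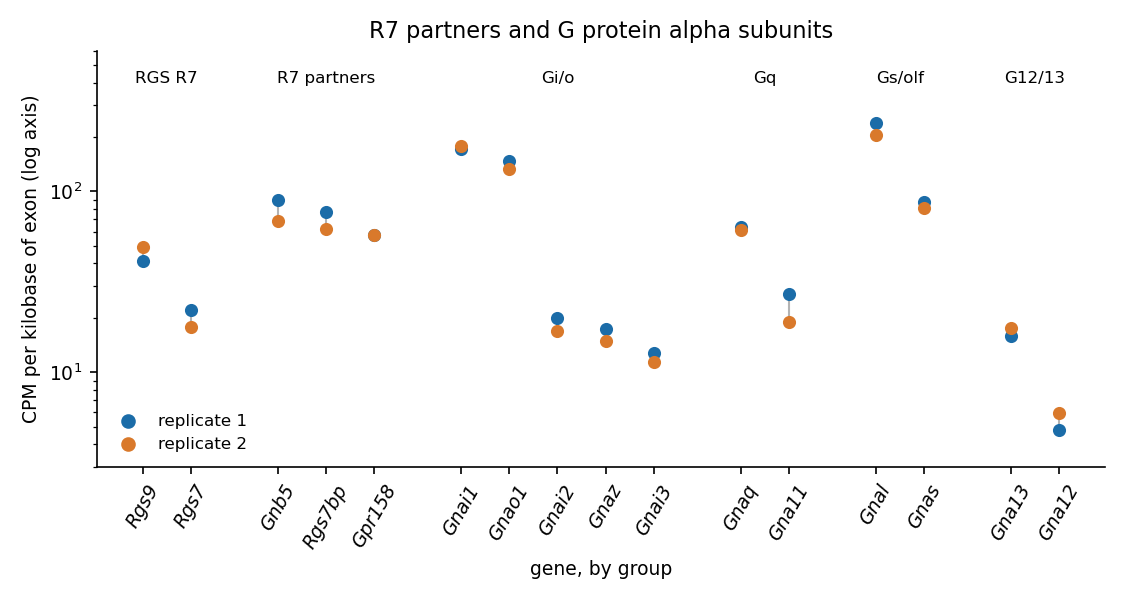
Level in CPM per kilobase of exon on a log axis of the 2 R7 members, their 3 detected partners and the 11 detected G protein alpha subunits, grouped on the x axis, blue for replicate 1 and orange for replicate 2. The partners Gnb5, Rgs7bp and Gpr158 lie between 57.2 and 89.3, above Rgs9 and Rgs7 on this scale, and Gnal is the highest gene plotted.

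The only contrast that the files allow is between the 2 libraries. It compares these libraries and not conditions, and was made for all 12374 detected genes with a 2-sided exact binomial test on reads, with Benjamini-Hochberg adjustment, after scaling with the TMM factors of edgeR (trimmed means of log ratios). The test takes in counting error only. At an adjusted p below 0.05 and a 2-fold ratio, 17.4% of all detected genes passed: 7.78% had more in replicate 1 and 9.57% in replicate 2. Of the 10 members, 1 passed with more in replicate 1 and 0 with more in replicate 2. Without the fold requirement, 8 of 10 passed, 5 as higher in replicate 1 and 3 in replicate 2, beside 78.9% of all detected genes (39.8% and 39.1%). Neither share sets the members apart from that background. Their median log2 ratio of replicate 2 over replicate 1 was -0.14 and their median size 0.31, beside -0.002 and 0.45 over all detected genes.

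**Figure D4:**
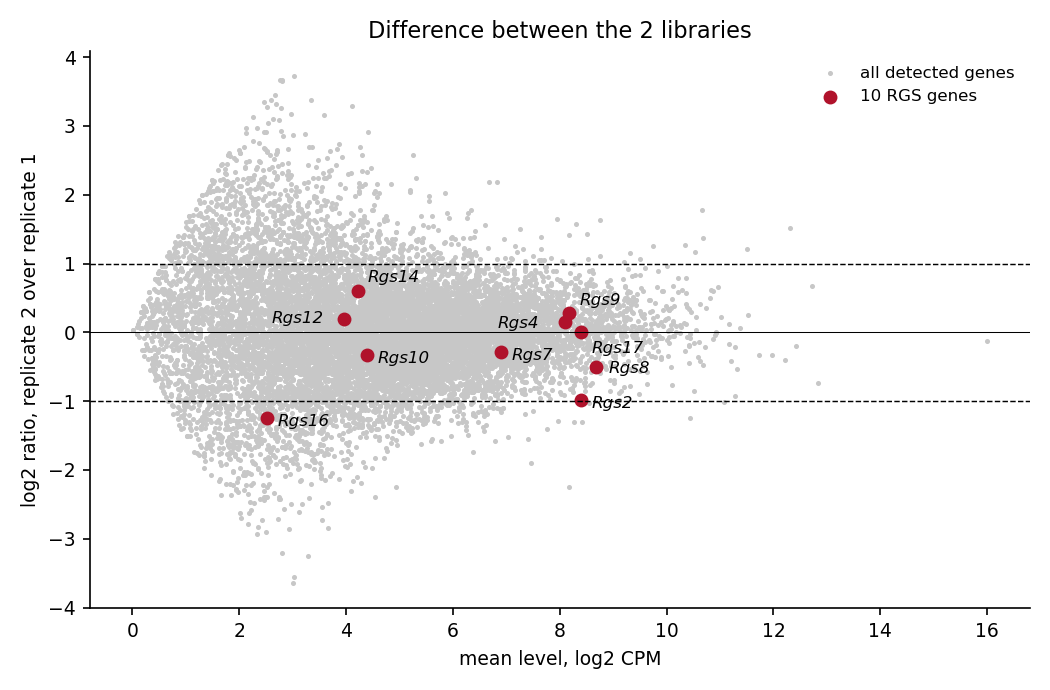
The log2 ratio of replicate 2 over replicate 1 (y axis) against mean level in log2 CPM (x axis) for the 12374 detected genes in grey and the 10 RGS genes in red, with dashed lines at a 2-fold ratio. Rgs16 lies outside the lines at -1.24, Rgs2 just inside at -0.98, and Rgs17 at 0.01.

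The member that passed was Rgs16, with a log2 ratio of -1.24 (exact binomial test, Benjamini-Hochberg adjusted p = 6.41e-13) from 210 and 100 reads. Rgs2 lay just inside the fold threshold at -0.98, a 1.97-fold higher level in replicate 1. The threshold decided that call: Rgs2 passed when scaled by total counts, and by DESeq2 size factors at a log2 ratio of -1.03. A larger ratio in either direction than that of Rgs2 under TMM was found in 18.0% of detected genes. Rgs8 was next in that direction, at -0.50 (adjusted p = 2.76e-145 in the exact binomial test).

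Of the remaining members, Rgs14 had the largest ratio towards replicate 2, at 0.61 (exact binomial adjusted p = 8.22e-11), followed by Rgs9 at 0.28 and Rgs4 at 0.15. Rgs10 stood at -0.33 and Rgs7 at -0.28. All 5 of these passed on the adjusted p and stayed under 2-fold. Rgs12, at 0.20 (exact binomial adjusted p = 0.0569), and Rgs17, at 0.01 (adjusted p = 0.823), did not pass at any fold under this scaling. Within R4 the members therefore ranged from -1.24 to 0.15, and within R12 from -0.33 to 0.61.

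Several other values moved between the same libraries, and their part in the ratios of the members was not tested. Stard5 itself was at 166 CPM in the first library and 54.9 CPM in the second. Immediate early genes, induced by neuronal activity as Rgs2 is known to be, had a median log2 ratio of -0.72 over 14 detected of 15. Of these ratios, 13 were below 0 and 1 above. Past the test, 5 were higher in replicate 1 and 0 in replicate 2, beside 7.78% and 9.57% of all detected genes. The list summed to 1058 and 570 CPM, with Egr1 at 486 and 194 CPM and Egr3 at 302 and 212 CPM. Spiny neuron markers had a median of -0.48, with 16 of 17 ratios below 0 and 1 past the test. Microglia markers, read beside Rgs10, had a median of -0.44, with 10 of 12 below 0 and none at 0 reads. Past the test, 2 of them were higher in replicate 1 and 0 in replicate 2. Over all detected genes, 6216 of 12374 ratios were below 0. Astrocyte markers had a median of 1.47, oligodendrocyte markers 0.74 and nuclear RNAs 1.38. The log2 ratio also rose with exon length, by 0.21 per doubling over 11845 genes. With that trend removed, Rgs17 turned to -0.18 and passed without a fold requirement (exact binomial adjusted p = 9.51e-17), whereas Rgs10 no longer passed, at -0.03 (exact binomial adjusted p = 0.774). Rgs8 was then at -0.73, Rgs2 at -0.91 and Rgs16 at -1.03.

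Some of the other RGS genes differed more than the members. Of the 6 detected, 3 passed with more in replicate 2 and 0 with more in replicate 1. Over all detected genes these shares were 9.57% and 7.78%. Rgs11 passed at a log2 ratio of 2.49 (36 and 227 reads), and Rgs6 at 1.68 (56 and 202 reads). Rgs3 passed at 1.27 (61 and 166 reads). All 3 had fewer reads in replicate 1 than any member, and level was not matched in this comparison. Rgs5 was at 0.98, Rgs20 at -0.35 and Rgs19 at -0.61. So the scarce R7 genes Rgs6 and Rgs11 were higher in replicate 2, where the abundant Rgs9 and Rgs7 differed by less than 1.5-fold. The difference between these sets was not tested. Among the R7 partners, Gnb5 was at -0.35, Rgs7bp at -0.29 and Gpr158 at 0.02.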

How the data were processed

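Each library has a deposited table of unnormalized read counts by gene symbol. STAR 2.0.0e and HTSeq, with mouse build mm10, are named in the submitters' processing notes. Which annotation and strand setting the authors used is not given in these sources. Lines naming no gene (6 per file) were left out. Of all counted reads, those outside annotated exons made up 22.8% in replicate 1 and 31.0% in replicate 2, and those with several alignments 27.9% and 13.6%. Counts were converted to CPM over named genes, and to CPM per kilobase of the union of exons in GENCODE M21 (GRCm38). Intervals are exact Poisson 95% intervals and cover counting error only, since reads are not independent molecules.

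Between the libraries, the test was a 2-sided exact binomial test on reads (SciPy 1.17.1) over genes at 1 CPM or more in both, with TMM factors from edgeR 4.0.16 computed on those genes and Benjamini-Hochberg adjustment. The test was checked on simulated counts. Alternatives used total counts, DESeq2 1.42.0 size factors, other filters, folds and lengths, and single libraries. The members and gene lists were chosen with earlier results of these data known. Named genes are all members, the R7 partners, the 4 highest, the lowest and the undetected other RGS genes, and the leading genes of each other list per kilobase. Rgs6, Gbx2, Vip and Emx1, and others so marked in the text, fall outside this rule and were named after their values were seen. Promoter windows are RefSeq entries of GRCm38.p6.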

Additional observations from a re-analysis of the deposited data

How the results depend on the processing

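The number of members past the test between the libraries depended on scaling at the 2-fold threshold. It was 1 with TMM over the tested genes and 2 with total counts, with DESeq2 size factors and with TMM over all symbols (chosen after seeing the data), both of them, Rgs16 and Rgs2, higher in replicate 1. Without a fold requirement it was 8, with 5 higher in replicate 1 and 3 in replicate 2. At a 1.5-fold ratio, also chosen after seeing the data, it was 3, with 2 higher in replicate 1 and 1, Rgs14, in replicate 2. It stayed at 1 without a filter, at a mean of 5 CPM and after removing the length trend. Over all genes, 2147 of 12374 (17.4%) passed in the main test, and 5796 of 18929 (30.6%) without a filter. Without a fold requirement 9761 (78.9%) passed, and at 1.5-fold 4737 (38.3%). The share was 17.4% with total counts, and 17.5% with DESeq2 size factors and with TMM over all symbols. It was 14.5% at a mean of 5 CPM and 14.8% after removing the length trend. The log2 ratio of Rgs17, 0.01, turned to -0.021 with total counts, -0.042 with DESeq2 size factors, -0.040 with TMM over all symbols, and -0.18 with the length trend removed.

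The R4 share of the members was 55.7% without division by length and 56.7% with the longest transcript, against 64.1%, and 60.2% to 68.0% in single libraries. Rgs4 over Rgs9 turned to -0.083 on the CPM scale. Single libraries gave -0.56 and 0.57 for Rgs2 over Rgs4, a median member level of 166 to 197 CPM, and 16 detected RGS genes each. No paired analysis was possible because there is a single group. Levels were not tested. Rgs16, with 210 and 100 reads, is the least precise member.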

Other observations

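Proteins outside the RGS family that carry an RGS-like domain were detected for 10 of 11 genes, below the abundant members per kilobase of exon. The sorting nexin genes led this list, Snx25 at 21.3 CPM per kilobase in replicate 1 and 9.82 in replicate 2, and Snx13 at 13.8 and 16.0. Snx25 passed the exact binomial test as higher in replicate 1, at a log2 ratio of -1.09. In that list 2 genes passed as higher in replicate 2, Grk5 at 1.34 and Adrbk2 at 1.10, both kinases of active receptors. Such calls were made for 7.78% of all detected genes towards replicate 1 and 9.57% towards replicate 2. Among other modulators of G alpha subunits, Ric8b, a chaperone and exchange factor for the Gs/olf class, was at 42.7 and 37.6 CPM per kilobase of exon. Rap1gap was at 18.7 and 18.4. Ric8b was close to Rgs17 on that scale, but with the longest transcript it was at 64.1 and 56.4, above Rgs17 at 41.5 and 40.9. The cerebellar modulator gene Pcp2 had 0 reads in both libraries. Adrbk2, Grk5 and Pcp2 were named after their values were seen.

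Of receptors that signal through the classes on which RGS proteins act, 13 of 14 Gi/o-coupled and 7 of 8 Gq-coupled genes were detected. Drd2 led the first list at 96.4 and 54.2 CPM per kilobase of exon, with the GABA-B receptor gene Gabbr1 at 59.8 and 47.8. With the longest transcript as length, Gabbr1 was at 88.5 and 70.7, above Drd2 (96.4 and 54.2) in replicate 2 only. Grm5 led the second list at 29.7 and 39.6 CPM per kilobase of exon, with Htr2c at 16.6 and 16.7. Between the libraries the Gi/o-coupled list was split, with 6 log2 ratios above 0 and 7 below. Drd2, also among the spiny neuron markers, was higher in replicate 1, at -0.81. The Gq-coupled list had 6 ratios above 0 and 1 below, with Grm5 higher in replicate 2, at 0.44.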
